A study of Mus musculus with 15 samples.

Results

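The levels of 10 genes of glucose use were followed across the posterior eyecup, the tissue left after the neural retina is removed. They were taken by name, and each was found among the 55421 genes counted in every library. They cover the uptake of glucose (Slc2a1), 4 enzymes of glycolysis (Hk1, Hk2, Pfkl, Pkm), the interconversion of pyruvate and lactate (Ldha, Ldhb) and the transport of lactate (Slc16a1, Slc16a3, Slc16a8). The eyecups held retinal pigment epithelium (RPE), choroid and sclera of mice aged 2.5 months on a C57BL/6J background: 4 WT mice, 6 Tmem135 FUN025/+ mice and 5 Tmem135 FUN025/FUN025 mice, which carry the FUN025 point mutation of Tmem135 on 1 or both copies of the gene. Both eyes of a mouse were pooled into 1 poly(A)-selected library, the mutation is present in every cell of the animal, and the mice were of both sexes without a label for each library. Comparing the genotypes asks whether the mutation, which alters a protein linked to mitochondria and peroxisomes, goes with a change in these transcripts.

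The RPE stands between the blood supply of the choroid and the photoreceptors. Glucose crosses it through GLUT1, the product of Slc2a1, on its way to photoreceptors, which ferment much of it to lactate. The RPE takes that lactate up and can burn it in its own mitochondria or pass it to the blood through monocarboxylate transporters, among them MCT1 (Slc16a1) on its apical face and MCT3 (Slc16a8) on its basal face. Hexokinases trap glucose in the cell as glucose 6-phosphate, phosphofructokinase makes the committed step of glycolysis and pyruvate kinase yields pyruvate. The eyecup is a mixture, so fewer cells of a type and less RNA per cell cannot be told apart in these libraries.

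Total counts ran from 18094977 to 20029919 in WT libraries, from 10903183 to 13456349 in FUN025/+ libraries and from 11053535 to 15038383 in FUN025/FUN025 libraries, so every WT library was deeper than every mutant library. The labels give no batch, so depth, a possible batch of WT libraries and genotype cannot be told apart. The tissue label was checked with 13 markers of pigment epithelium, which had a count in every library and summed to 22577 to 28259 CPM per mouse, where CPM are counts relative to the scaled total of the library. Of these markers 0 were called in FUN025/+ and 2 in FUN025/FUN025 eyecups against WT, 1 higher and 1 lower. Tmem135 itself ran from 59.8 to 66.2 CPM in the WT mice, from 66.1 to 86.3 CPM in the FUN025/+ mice and from 82.5 to 93.98 CPM in the FUN025/FUN025 mice. A count on the whole gene does not show the point mutation. Markers of striated muscle and of photoreceptors varied between mice and are given beside the results below. Levels are in CPM, scaled by the TMM method, when a gene is compared with itself, and in CPM per kilobase of exon (RPKM) when genes are compared with each other.

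The stretch of 250 bases before the RefSeq start site is shown for 4 of the genes (GRCm38.p6), in capitals wherever it holds ACGTG or its reverse complement CACGT, the core letters of hypoxia response elements. Hk2 (chr6:82774455-82774704, minus strand) and Slc16a3 (chr11:120948817-120949066, plus strand) are shown because they were the genes called between genotypes. Slc16a3 was called only in FUN025/+ against WT, and not under every setting. Slc16a1 (chr3:104638414-104638663, plus strand) and Slc16a8 (chr15:79254749-79254998, minus strand) are shown because their levels followed each other most closely among the 10 genes.
Hk2: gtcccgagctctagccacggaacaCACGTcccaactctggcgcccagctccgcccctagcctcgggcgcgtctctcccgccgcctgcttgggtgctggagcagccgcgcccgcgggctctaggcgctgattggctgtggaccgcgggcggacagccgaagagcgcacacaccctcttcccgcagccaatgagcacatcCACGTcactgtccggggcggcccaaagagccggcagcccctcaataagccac
Slc16a3: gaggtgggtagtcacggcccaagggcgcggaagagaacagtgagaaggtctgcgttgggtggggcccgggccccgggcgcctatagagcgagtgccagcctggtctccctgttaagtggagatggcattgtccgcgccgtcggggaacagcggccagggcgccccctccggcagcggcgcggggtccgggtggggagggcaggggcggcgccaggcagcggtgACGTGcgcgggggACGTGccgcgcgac
Slc16a1: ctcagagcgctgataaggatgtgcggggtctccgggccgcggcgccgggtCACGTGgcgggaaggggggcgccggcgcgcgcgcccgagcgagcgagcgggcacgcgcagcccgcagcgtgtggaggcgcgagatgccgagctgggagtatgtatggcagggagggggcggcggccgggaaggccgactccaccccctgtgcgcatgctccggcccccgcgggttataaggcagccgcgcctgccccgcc
Slc16a8: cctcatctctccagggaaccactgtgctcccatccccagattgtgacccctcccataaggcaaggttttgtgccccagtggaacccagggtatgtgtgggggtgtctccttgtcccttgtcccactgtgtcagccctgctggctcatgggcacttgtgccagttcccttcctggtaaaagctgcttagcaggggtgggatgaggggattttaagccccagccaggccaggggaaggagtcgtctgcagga
Hk2 and Slc16a3 each held the letters at 2 places, at 226 and 52 bases and at 27 and 14 bases before the start site. In Slc16a1 the 2 matches overlap in a CACGTG, and Slc16a8 held none. Of the 13 windows listed for the 10 genes, 6 windows of 6 genes held ACGTG on either strand, against 16.6% of all 32851 windows of this length in the table. The GC box GGGCGG, searched on both strands, stood in 6 of the 13 windows and in 32.7% of all windows. A match is a description of the letters and not a binding site.

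Per length of exon, Slc2a1 was the highest of the 10 genes at 324.0 ± 24.5 RPKM (SD over all 15 mice) and lay above 99.6% of the protein-coding genes tested. Slc16a8 followed at 289.3 ± 32.1 RPKM, and the ranges of these 2 genes overlapped, with Slc2a1 the higher in 13 of 15 mice. Both carry metabolites across the RPE. Ldhb, whose product favours the turning of lactate into pyruvate, came next at 203.3 ± 14.4 RPKM and was above Pkm in 15 of 15 mice, although the ranges of the 2 overlapped. Pkm was at 171.1 ± 10.02 RPKM and Slc16a1 at 130.5 ± 17.6 RPKM, again with overlapping ranges, and Pkm was the higher in 14 of 15 mice. Below them the order was Ldha (80.2 ± 8.48 RPKM), Pfkl (30.4 ± 1.59 RPKM), Hk1 (21.2 ± 1.27 RPKM), Hk2 (6.27 ± 1.47 RPKM) and Slc16a3 (3.17 ± 0.658 RPKM), with no overlap between neighbours from Slc16a1 downwards. The transporters at the top and the hexokinases near the bottom thus stood far apart in transcript level per length. The depth behind these values was 148 to 430 counts per library for Slc16a3, 308 to 991 for Hk2 and at least 1788 for each of the other genes. Some positions in the order carry a further uncertainty, because 34.7% of the 31-base stretches of Pkm, 33.0% of those of Ldhb and 19.6% of those of Ldha also occur in other genes, while for each of the other 7 genes this share was at most 2.09%.

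Between FUN025/+ and WT eyecups, 2 of the 10 genes passed the test, and both were lower: Hk2, the hexokinase of muscle and other insulin-responsive tissue, and Slc16a3, which encodes the lactate exporter MCT4 of glycolytic cells. Between FUN025/FUN025 and WT eyecups, Hk2 alone passed and was again lower. None passed between FUN025/FUN025 and FUN025/+ eyecups. Over all 18979 genes tested, 6.61% were called lower in FUN025/+ and 7.02% lower in FUN025/FUN025 than in WT, and 13.7%, 14.0% and 0.522% were called in either direction in the 3 comparisons. Without WT replicate 4 the counts of called genes behind the 13.7% and 14.0% fell from 2600 to 1433 and from 2666 to 1519. With 10 genes a single call is a large share of them, and nothing particular to the group is read from these counts. The median log2 fold change of the 10 genes was -0.05, -0.09 and 0.03 in the 3 comparisons, where that of all genes was -0.00234, -0.00707 and -0.00399. All calls rest on an adjusted p-value under 0.05 by edgeR's quasi-likelihood test with Benjamini-Hochberg adjustment over all genes, and the 2 comparisons with WT share the same 4 WT mice. Nothing in the labels says that the mice came from separate litters.

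**Figure D1:**
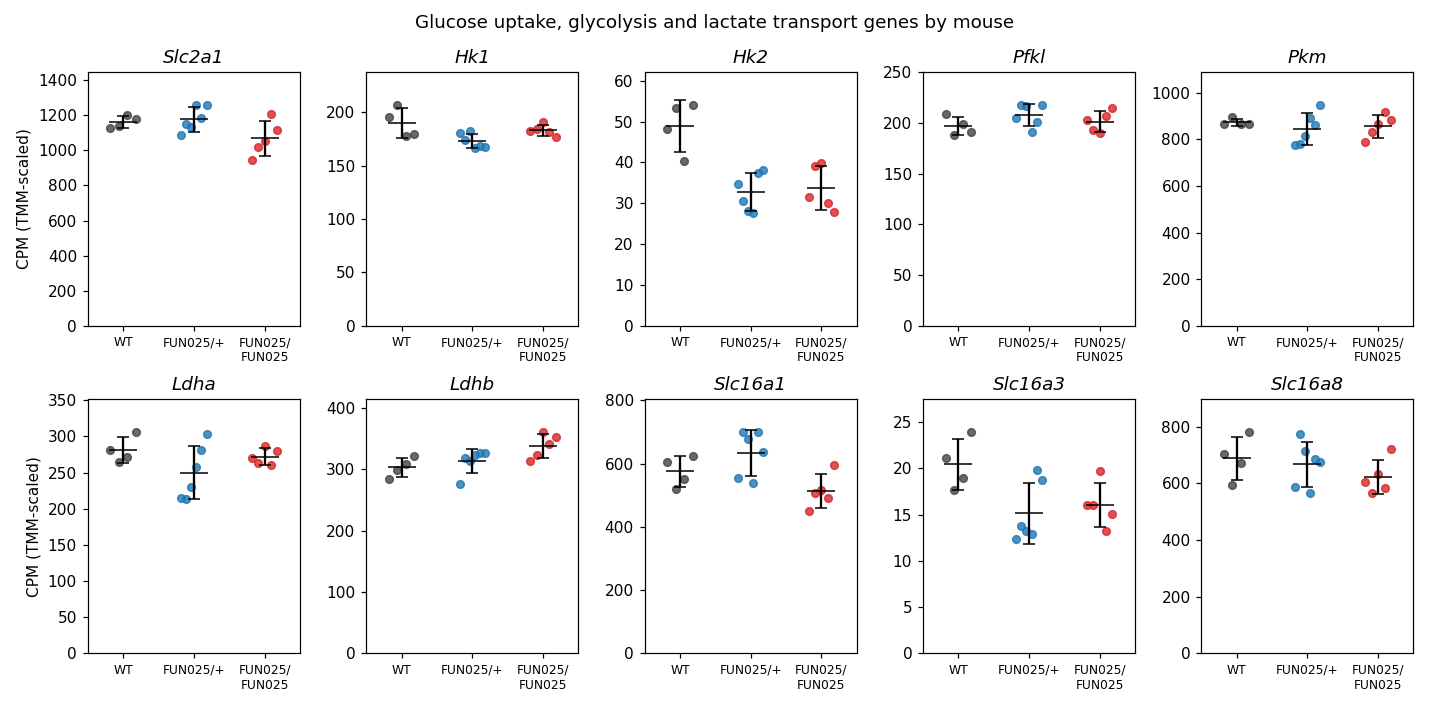
The level of each of the 10 genes in CPM (vertical axes, from 0) in each mouse, by genotype, with the mean and SD. Hk2 is the only panel in which every mutant mouse (27.6 to 39.8 CPM) lies below every WT mouse (40.2 to 54.0 CPM).

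Slc2a1 (ENSMUSG00000028645, chromosome 4, 119108711 to 119137983, plus strand, in GRCm38) was at 1160 ± 35.8 CPM (SD, n = 4) in WT, 1177 ± 69.97 CPM (SD, n = 6) in FUN025/+ and 1067 ± 98.7 CPM (SD, n = 5) in the homozygotes. The FUN025/FUN025 mice ranged from 944.6 to 1205 CPM, which takes in the whole WT range of 1125 to 1203 CPM. The log2 fold change from WT was 0.02 (95% interval -0.12 to 0.16) in FUN025/+ and -0.12 (-0.26 to 0.02) in FUN025/FUN025 eyecups. With edgeR's adjusted p = 0.871 and 0.247, no difference was detected, and both intervals leave out a change as large as that of Hk2.

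Hk1, the housekeeping hexokinase, was at 189.9 ± 13.8 CPM (SD, n = 4) in WT, 173.2 ± 6.95 CPM (SD, n = 6) in FUN025/+ and 183.4 ± 5.22 CPM (SD, n = 5) in the homozygotes. Its log2 fold change in FUN025/+ eyecups was -0.13 (95% interval -0.23 to -0.03), which did not pass after adjustment over all genes (edgeR, adjusted p = 0.0716).

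Hk2 (ENSMUSG00000000628, chromosome 6, 82725025 to 82774454, minus strand, in GRCm38) was at 48.1, 53.3, 40.2 and 54.0 CPM in the 4 WT mice. In the 6 FUN025/+ mice it ran from 27.6 CPM to 38.1 CPM with a median of 32.6 CPM, and in the 5 FUN025/FUN025 mice it was at 31.6, 39.1, 39.8, 30.2 and 27.9 CPM. Every mutant mouse was thus below every WT mouse, although the highest FUN025/FUN025 value and the lowest WT value lay close together. The log2 fold change was -0.58 in FUN025/+ (95% interval -0.83 to -0.32; adjusted p = 0.00503 by edgeR) and -0.53 in FUN025/FUN025 eyecups (-0.80 to -0.27; adjusted p = 0.0108 by edgeR), that is 1.49-fold and 1.45-fold lower. Between the 2 mutant genotypes the log2 fold change was 0.04 (-0.20 to 0.29). Hk2 was the only gene of the 10 without overlap to WT in either comparison, against 10.9% and 14.8% of all genes in the 2 comparisons with WT, and no gene of the 10 was without overlap between FUN025/FUN025 and FUN025/+ mice, against 1.12%. The difference held in all 15 fits that left out 1 mouse, and with counts drawn down to the depth of the smallest library it was -0.54 and -0.50 (edgeR, adjusted p = 0.00591 and 0.0123).

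Markers of striated muscle and of photoreceptors were set beside the Hk2 result. The 18 markers of striated muscle summed to 7115 to 12896 CPM in WT, 3813 to 9648 CPM in FUN025/+ and 5724 to 7061 CPM in FUN025/FUN025 mice, and 5 of the 17 tested were called lower in each mutant genotype. The 18 photoreceptor markers summed to 394.2 to 2736 CPM in WT, 209.7 to 865.1 CPM in FUN025/+ and 217.6 to 581.8 CPM in FUN025/FUN025 mice, with 0 and 1 of 18 called, and 17 of the 18 muscle markers and all 18 photoreceptor markers had a count in every library. With the mean level of the muscle list as a covariate, chosen after seeing the data, the log2 fold change of Hk2 was -0.43 (95% interval -0.74 to -0.11) in FUN025/+ and -0.41 (-0.71 to -0.10) in FUN025/FUN025 eyecups (edgeR, adjusted p = 0.105 and 0.0930). With both lists as covariates it was 0.01 (-0.39 to 0.40) and -0.04 (-0.39 to 0.32; edgeR, adjusted p = 0.995 and 0.945). With the photoreceptor list alone Hk2 stayed lower, at -0.53 (-0.84 to -0.21) and -0.49 (-0.80 to -0.18), and passed (edgeR, adjusted p = 0.0316 and 0.0370). Whether the lower Hk2 belongs to the mutation or to the make-up of the eyecups was not tested.

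Pfkl, the phosphofructokinase of liver type, and Pkm, pyruvate kinase, did not differ detectably. Pfkl was at 197.2 ± 9.14 CPM (SD, n = 4) in WT, 208.5 ± 10.9 CPM (SD, n = 6) in FUN025/+ and 201.5 ± 10.2 CPM (SD, n = 5) in the homozygotes. Pkm was at 872.3 ± 14.1, 844.5 ± 67.97 and 856.2 ± 49.0 CPM in the same order. The log2 fold changes from WT were 0.08 and 0.03 for Pfkl and -0.05 and -0.03 for Pkm, and the outermost ends of the 4 intervals (95%) were -0.17 and 0.19.

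**Figure D2:**
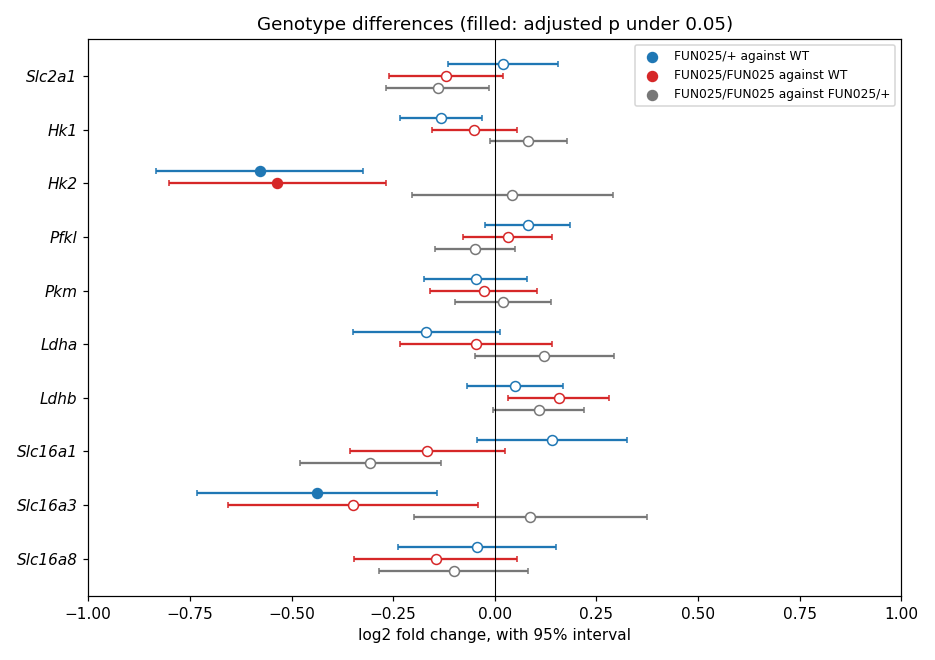
The log2 fold change (horizontal axis) of each gene in the 3 comparisons, with its 95% interval from the edgeR fit. Filled points, those with an adjusted p under 0.05, are Hk2 in both comparisons with WT and Slc16a3 in FUN025/+ against WT.

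Ldha, whose product favours the making of lactate, was at 280.9 ± 17.96 CPM (SD, n = 4) in WT, 249.99 ± 37.3 CPM (SD, n = 6) in FUN025/+ and 272.0 ± 11.3 CPM (SD, n = 5) in the homozygotes. The FUN025/+ mice were spread from 213.7 to 303.6 CPM, within and below the WT range of 264.6 to 305.8 CPM. The log2 fold change in FUN025/+ was -0.17 (95% interval -0.35 to 0.01, edgeR adjusted p = 0.206). It passed in 1 of the 15 fits that left out 1 mouse, FUN025/+ replicate 6 (-0.23, edgeR adjusted p = 0.0468). It also passed with the replicate number as a block (-0.27, edgeR adjusted p = 0.0191). With the muscle list as a covariate its direction turned, to 0.07 (edgeR, adjusted p = 0.620). Ldhb was at 303.4 ± 15.8 CPM (SD, n = 4) in WT, 313.9 ± 19.6 CPM (SD, n = 6) in FUN025/+ and 338.3 ± 19.4 CPM (SD, n = 5) in the homozygotes. Its log2 fold change of 0.16 (0.03 to 0.28) in FUN025/FUN025 did not pass in edgeR (adjusted p = 0.0823) and passed narrowly in DESeq2 (adjusted p = 0.0454). It passed in 2 of the 15 edgeR fits that left out 1 mouse, FUN025/+ replicate 1 (adjusted p = 0.0453) or FUN025/FUN025 replicate 1 (adjusted p = 0.0483). With the muscle list as a covariate it was 0.24 and passed (edgeR, adjusted p = 0.0221). With the photoreceptor list it was 0.11 and with both lists 0.23, and neither passed (edgeR, adjusted p = 0.277 and 0.183).

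Slc16a1 (ENSMUSG00000032902, chromosome 3, 104638668 to 104658462, plus strand) was at 605.5, 520.2, 549.7 and 624.5 CPM in the 4 WT mice. It ran from 537.4 CPM to 699.1 CPM in the FUN025/+ mice with a median of 656.5 CPM, and was at 450.4, 508.2, 514.8, 491.9 and 596.6 CPM in the FUN025/FUN025 mice. The mean was highest in the heterozygotes and lowest in the homozygotes, and each pair of genotypes overlapped. From WT the log2 fold change was 0.14 (95% interval -0.04 to 0.32) in FUN025/+ and -0.17 (-0.36 to 0.02) in FUN025/FUN025 eyecups (edgeR, adjusted p = 0.307 and 0.239). Between FUN025/FUN025 and FUN025/+ the log2 fold change was -0.31 (95% interval -0.48 to -0.13), which did not pass in edgeR (adjusted p = 0.162) but passed in DESeq2 (adjusted p = 0.0362) and, narrowly, in edgeR with the muscle list as a covariate (-0.33, adjusted p = 0.0498). It passed in 0 of the 15 fits that left out 1 mouse (edgeR, adjusted p = 0.0585 to 0.438). With the photoreceptor list, both lists or thinned counts it was -0.29, -0.30 and -0.30 and did not pass (edgeR, adjusted p = 0.0670, 0.0704 and 0.173). In that comparison edgeR without covariates and limma voom called 0 of the 10 genes and DESeq2 called Slc16a1, while 2 genes, Slc2a1 and Slc16a1, had an unadjusted p under 0.05 in edgeR, as had 6.23% of all genes.

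Slc16a3 (ENSMUSG00000025161, chromosome 11, 120948480 to 120960868, plus strand) was at 21.1, 17.7, 18.9 and 23.9 CPM in the 4 WT mice. It ran from 12.3 CPM to 19.9 CPM in FUN025/+ mice with a median of 13.5 CPM, and was at 16.0, 16.0, 19.8, 13.2 and 15.1 CPM in the FUN025/FUN025 mice. Both mutant genotypes overlapped with WT, and 4 of the 6 heterozygotes lay between 12.3 and 13.8 CPM. The log2 fold change was -0.44 in FUN025/+ (95% interval -0.73 to -0.14; edgeR, adjusted p = 0.0470) and -0.35 in FUN025/FUN025 eyecups (-0.66 to -0.04; edgeR, adjusted p = 0.122). The call in FUN025/+ remained in 5 of the 15 fits that left out 1 mouse: WT replicate 2, FUN025/+ replicate 5 or 6, or FUN025/FUN025 replicate 3 or 4. In the other 10 fits the adjusted p by edgeR was 0.0577 to 0.179, the highest without WT replicate 4 (log2 fold change -0.34). The call was also lost with upper-quartile scaling, without the low-count filter and with only the 2 genotypes compared. There the log2 fold changes were -0.42, -0.44 and -0.43 (edgeR, adjusted p = 0.0524, 0.0646 and 0.0790). With the muscle list as a covariate the log2 fold changes were -0.05 (-0.28 to 0.19) and -0.01 (-0.23 to 0.22; edgeR, adjusted p = 0.854 and 0.985). With the photoreceptor list they were -0.61 and -0.49 (edgeR, adjusted p = 0.0139 and 0.0343), and with both lists 0.03 and 0.06 (edgeR, adjusted p = 0.958 and 0.884).

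Slc16a8, a transporter found mainly in RPE and choroid plexus, was at 688.7 ± 76.8 CPM (SD, n = 4) in WT, 667.9 ± 79.4 CPM (SD, n = 6) in FUN025/+ and 622.5 ± 61.4 CPM (SD, n = 5) in the homozygotes. Its log2 fold change from WT was -0.04 (95% interval -0.24 to 0.15) and -0.15 (-0.35 to 0.06), with edgeR's adjusted p = 0.791 and 0.337. With the photoreceptor list as a covariate, both genes passed as lower in FUN025/FUN025 eyecups, Slc16a1 at a log2 fold change of -0.29 (95% interval -0.47 to -0.11; edgeR, adjusted p = 0.0296) and Slc16a8 at -0.30 (-0.46 to -0.14; edgeR, adjusted p = 0.0146). With both lists they were at -0.21 and -0.35 and did not pass (edgeR, adjusted p = 0.410 and 0.117).

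**Figure D3:**
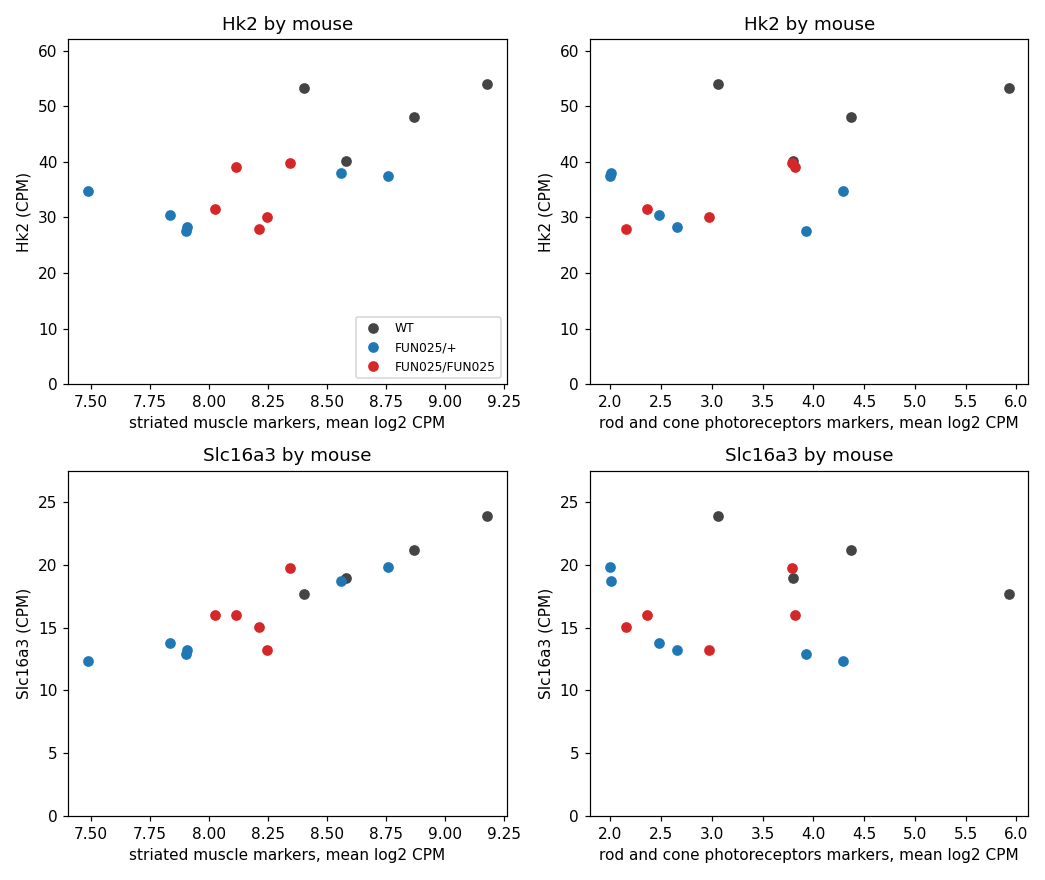
The CPM of Hk2 (upper row) and Slc16a3 (lower row) in each mouse against the mean log2 CPM of the striated muscle markers (left) and of the photoreceptor markers (right), coloured by genotype. Slc16a3 rises with the muscle markers within and across genotypes (r = 0.86 after subtracting genotype means), while Hk2 follows them less closely (r = 0.41).

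Within each family the shares of summed RPKM are given as a description. Hk1 made up 73.1 ± 2.38% of hexokinase Hk1 and Hk2 transcripts in WT (SD, n = 4), 78.7 ± 2.65% in FUN025/+ (SD, n = 6) and 79.3 ± 2.23% in FUN025/FUN025 eyecups (SD, n = 5). The share of Hk2 was 24.4 to 30.1% in WT mice and 18.1 to 24.6% in FUN025/+ mice, ranges that overlap slightly, and 18.4 to 23.2% in FUN025/FUN025 mice. Ldhb made up 69.5 ± 1.19%, 72.7 ± 2.29% and 72.4 ± 0.876% of the 2 lactate dehydrogenases, so the form that favours the use of lactate was the more abundant in every mouse. Of the 3 monocarboxylate transporters, Slc16a8 made up 69.3 ± 0.867% in WT, 66.8 ± 0.916% in FUN025/+ and 69.7 ± 1.39% in FUN025/FUN025 eyecups. Slc16a1 took 28.9 to 30.7% in WT, 31.5 to 34.0% in FUN025/+ and 27.4 to 31.3% in FUN025/FUN025 mice. Slc16a3 took 0.516 to 0.933% over all mice.

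**Figure D4:**
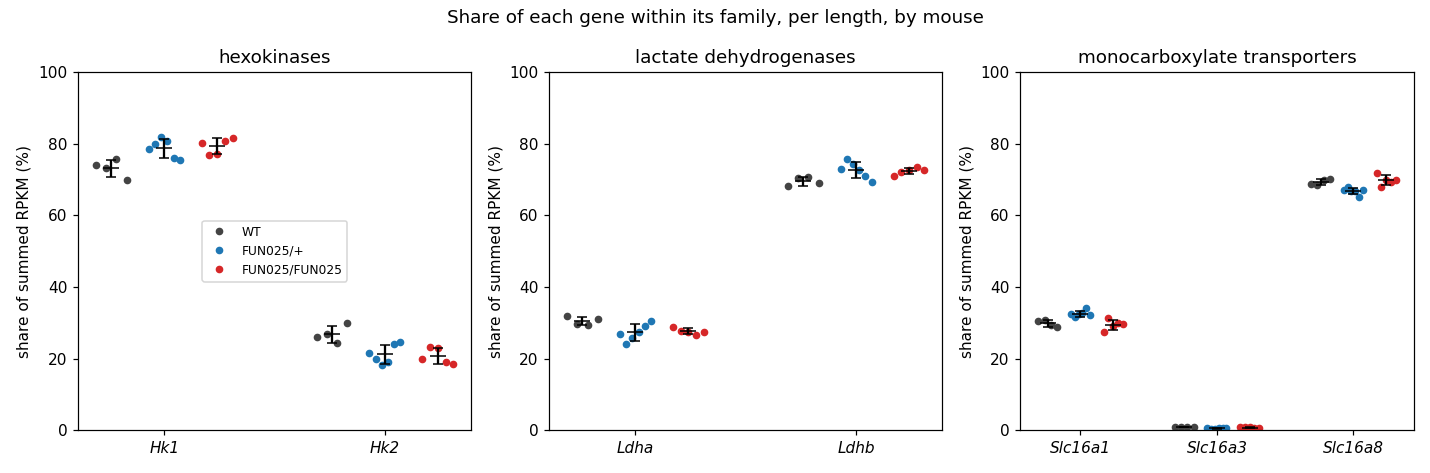
The share (%) of each gene in the summed RPKM of its family (vertical axes), by mouse and genotype, with mean and SD. Hk1, Ldhb and Slc16a8 were the most abundant of their families in all 15 mice, and Slc16a3 stayed under 1% of the transporters.

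How the 10 genes moved from mouse to mouse was described by Pearson's r of log2 CPM over the 15 mice after the genotype means were subtracted. These points share library, dissection and depth, and r is given without a test. Slc16a1 and Slc16a8 followed each other most closely of all pairs (r = 0.89), then Slc2a1 and Pkm (r = 0.84) and Ldha and Slc16a3 (r = 0.80). The opposite sign was found for Hk1 with Ldha (r = -0.51) and with Slc2a1 (r = -0.50).

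The same measure set the genes beside cell type markers. Slc16a1 and Slc16a8 followed both the pigment epithelium list (r = 0.81 and 0.80) and the list of macrophages and microglia (r = 0.72 and 0.84), and ran against the photoreceptor list (r = -0.64 and -0.78). Ldha and Slc16a3 followed the striated muscle list (r = 0.87 and 0.86), and Hk1 followed the photoreceptor list (r = 0.67). Pkm and Slc2a1 ran against the fibroblast and sclera list (r = -0.88 and -0.81) and against the endothelium list (r = -0.91 and -0.73). Endothelial markers were themselves lower than in WT in FUN025/FUN025 eyecups, with 7 of 10 called lower (980.5 to 1206 CPM summed against 1330 to 1564 CPM in WT), and 3 of 10 were called lower in FUN025/+ eyecups (1065 to 1463 CPM). The lists of macrophages and microglia, red blood cells and Schwann cells had at most 1 marker called in any comparison. None of these lists but muscle and photoreceptors was entered as a covariate.

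The protein-coding genes closest to each of the 10 in this measure, among 14477 with a mean of at least 1 CPM, are given as a description. For Slc16a1 they were Rlbp1 (r = 0.96), which encodes a retinoid-binding protein of RPE and Müller cells, Fez2 (r = 0.94) and Vegfa (r = 0.94), the vascular growth factor that the RPE secretes. Those of Slc16a8 were Tmbim6, Tmem98 and Eci1 (r = 0.96 for each). Slc2a1 had Med31 (r = 0.96), Bmp2 (r = 0.95) and Palmd (r = 0.89). For Pkm they were Gpi1 (r = 0.94), the preceding isomerase of glycolysis, Atp5b (r = 0.90) and Pdhx (r = 0.90). Slc16a3 lay closest to the muscle membrane gene Tmem182 (r = 0.91), the muscle enolase Eno3 (r = 0.91) and Eif3j1 (r = 0.91), and Ldha to Tuba8 (r = 0.94), Ank1 (r = 0.92) and Mgst3 (r = 0.90). Hk1 had Cngb1 (r = 0.87), the rod channel subunit, Brsk2 (r = 0.86) and Zfyve28 (r = 0.86). Hk2 had A630089N07Rik (r = 0.88), D430019H16Rik (r = 0.84) and Fry (r = 0.80), Ldhb had Siah2, Mcrip2 and Chchd10 (r = 0.92, 0.91 and 0.90), and Pfkl had Zfp820, Spry4 and Dusp4 (r = 0.86, 0.86 and 0.85).

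Around the 10 genes, 94 others of the pathway were listed and 86 were tested. The rest were removed by the filters. In FUN025/+ eyecups 4 passed, all lower than WT, and in FUN025/FUN025 eyecups 7 passed, 6 higher and 1 lower, while none passed between the mutant genotypes, where 8 had an unadjusted p under 0.05 in edgeR and DESeq2 and limma voom also called 0. The counts by adjusted p are smaller shares of the 86 genes than the shares of all genes called in either direction given above, and 6.23% of all genes had an unadjusted p under 0.05 between the mutant genotypes. The median log2 fold change of the 86 genes was -0.01, 0.03 and 0.02 in the 3 comparisons.

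Of the other glycolytic enzymes, 1 of 17 was lower in FUN025/+ and 2 of 17 were higher in FUN025/FUN025 eyecups. Gpi1, glucose 6-phosphate isomerase, was at 439.3 ± 12.0 CPM in WT (SD, n = 4) and 390.0 ± 27.0 CPM in FUN025/+ eyecups (SD, n = 6; log2 fold change -0.17, edgeR adjusted p = 0.0367). With the muscle list as a covariate the log2 fold change of Gpi1 was -0.08 and with both lists -0.04 (edgeR, adjusted p = 0.469 and 0.913). The call was also lost with upper-quartile scaling and with only the 2 genotypes compared (-0.16 in each, edgeR adjusted p = 0.0564 and 0.0873), and without WT replicate 2, 3 or 4, FUN025/+ replicate 1, 2 or 3, or FUN025/FUN025 replicate 1. Gapdh and Pgk1, which act in succession on the triose phosphates, rose in FUN025/FUN025 eyecups by 0.24 and 0.22 on the log2 scale (edgeR, adjusted p = 0.0338 and 0.0150). With the photoreceptor list as a covariate neither passed, at log2 fold changes of 0.23 and 0.16 (edgeR, adjusted p = 0.0745 and 0.0795). With the muscle list both passed, Gapdh at 0.36 and Pgk1 at 0.33 (edgeR, adjusted p = 0.00384 and 9.15e-04), and with both lists they were at 0.53 and 0.30 (edgeR, adjusted p = 0.00278 and 0.0444). In FUN025/+ eyecups, where neither was called, Gapdh (0.26) and Pgk1 (0.24) passed with the muscle list (edgeR, adjusted p = 0.0385 and 0.0156), and Gapdh (0.46, edgeR adjusted p = 0.0264) with both. Gapdh lost its call without WT replicate 1 or 3 or FUN025/FUN025 replicate 2, 3 or 4, at 0.21 to 0.27 over all 15 such fits. Pgk1 went from 268.8 ± 8.53 CPM (SD, n = 4) to 313.4 ± 12.3 CPM (SD, n = 5) without overlap, but 54.7% of its 31-base stretches and 28.1% of those of Gapdh also occur in other genes. The mean of Gapdh in WT was only 11.7 RPKM, against 68.1 to 612.3 RPKM for Gpi1, Aldoa, Pgk1 and Eno1. Whether reads of Gapdh were lost to genes that share its sequence was not tested. Aldoa (log2 fold change -0.16 and -0.15 from WT in the heterozygotes and homozygotes) and Eno1 (0.06 and 0.02) did not pass. The muscle forms Eno3, Pfkm and Pgam2, which were chosen after their values were seen, had log2 fold changes of -0.55, -0.41 and -0.64 in FUN025/+ eyecups and did not pass either (edgeR, adjusted p = 0.0990, 0.0834 and 0.0911).

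Among glucose transporters, 1 of 11 passed: Slc2a12, which encodes the transporter GLUT12, was at 63.3 ± 5.06 CPM in WT (SD, n = 4) and 74.7 ± 8.05 CPM in FUN025/FUN025 eyecups (SD, n = 5; log2 fold change 0.24, edgeR adjusted p = 0.0489). The call of Slc2a12 was lost with counts thinned to the smallest library, with the muscle list, with the photoreceptor list, with both and with only the 2 genotypes compared (edgeR, adjusted p = 0.10, 0.0974, 0.0877, 0.260 and 0.0636), where the log2 fold changes were 0.21, 0.26, 0.24, 0.30 and 0.24. It remained in 5 of the 15 fits that left out 1 mouse, those without WT replicate 1 or 3, FUN025/+ replicate 3 or 4, or FUN025/FUN025 replicate 4, and the log2 fold change was 0.18 to 0.29 over the 15. Of 13 regulators, Hif1a, the oxygen-sensitive factor that drives many glycolytic genes, was the single call, at 262.6 ± 29.3 CPM in WT (SD, n = 4) and 326.8 ± 18.1 CPM in FUN025/FUN025 eyecups (SD, n = 5; log2 fold change 0.32, edgeR adjusted p = 0.0106). Its values did not overlap with WT. With the muscle list as a covariate the log2 fold change of Hif1a was 0.29 (edgeR, adjusted p = 0.0539), and with both lists 0.53 (edgeR, adjusted p = 0.0125). Pfkfb3, which makes the activator of phosphofructokinase, and Txnip, which curbs glucose uptake, did not pass, with log2 fold changes from WT of 0.11 and 0.06 and of -0.19 and -0.29.

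Of the genes of pyruvate entry, the largest called change was in Pdk4, a kinase that shuts off pyruvate dehydrogenase. It fell from 42.9 ± 4.86 CPM in WT (SD, n = 4) to 23.0 ± 5.23 CPM in FUN025/+ (SD, n = 6) and 27.8 ± 1.89 CPM in FUN025/FUN025 eyecups (SD, n = 5). The log2 fold changes were -0.90 and -0.62 (edgeR, adjusted p = 3.24e-04 and 0.00664), and no mutant mouse reached the WT range of 37.1 to 47.6 CPM. With the muscle list as a covariate the log2 fold changes of Pdk4 were -0.92 and -0.64 (edgeR, adjusted p = 0.00784 and 0.0293), and with both lists -1.05 and -0.75 (edgeR, adjusted p = 0.0983 and 0.136). Pdp2, a phosphatase that acts the opposite way on the same complex, was higher in FUN025/FUN025 eyecups, at 17.0 ± 0.835 CPM (SD, n = 5) against 12.9 ± 0.694 CPM (SD, n = 4; log2 fold change 0.40, edgeR adjusted p = 0.00768). Pdk1 (log2 fold change 0.18 and 0.33) and Mpc1, a subunit of the pyruvate carrier (-0.11 and -0.09), did not pass.

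None of the 14 other monocarboxylate transporters and chaperones passed in any comparison. Bsg, the chaperone that brings MCT1, MCT3 and MCT4 to the membrane, was at 1755 to 1986 CPM in the WT mice, 1586 to 1961 CPM in the FUN025/+ mice and 1665 to 1912 CPM in the FUN025/FUN025 mice. Slc16a7 (MCT2) had log2 fold changes from WT of 0.08 and 0.16. Of 16 genes of gluconeogenesis and glycogen, the phosphoenolpyruvate carboxykinases Pck1 (log2 fold change -1.71, edgeR adjusted p = 0.0348) and Pck2 (-0.27, edgeR adjusted p = 0.0168) were lower in FUN025/+ eyecups, and Pygb, the brain form of glycogen phosphorylase, was higher in FUN025/FUN025 eyecups at 135.6 ± 2.35 CPM (SD, n = 5) against 114.0 ± 6.11 CPM (SD, n = 4; log2 fold change 0.25, edgeR adjusted p = 0.00632). The level of Pck1 was low, at 1 to 65 counts per library, and WT replicate 4 stood at 3.61 CPM against 0.779 to 1.13 CPM in the other WT mice. Without that mouse the log2 fold change of Pck1 was -0.95 (edgeR, adjusted p = 0.225). The call was also lost without any 1 of FUN025/+ replicates 2 to 6, with the muscle list (-1.40, edgeR adjusted p = 0.305), with both lists (-2.27, edgeR adjusted p = 0.370), with limma voom, without the low-count filter and with the replicate block. Pck2 lost its call without WT replicate 2, 3 or 4, with the photoreceptor list (log2 fold change -0.20, edgeR adjusted p = 0.0983), with both lists (-0.45, edgeR adjusted p = 0.0761) and with the replicate block (-0.21, edgeR adjusted p = 0.0719). Pck2 passed with the muscle list, at -0.43 (edgeR, adjusted p = 0.00345). Pygb lost its call with both lists (log2 fold change 0.32, edgeR adjusted p = 0.0720).

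**Figure D5:**
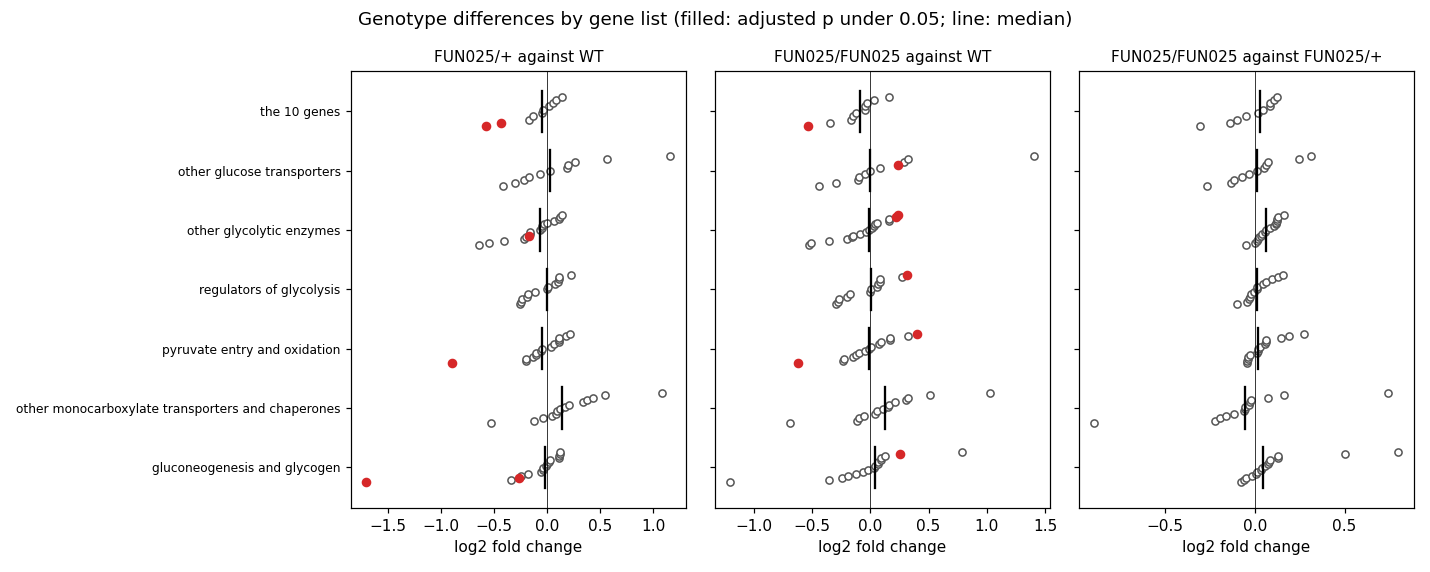
The log2 fold change (horizontal axis) of every tested gene of the 7 lists in the 3 comparisons; filled points had an adjusted p under 0.05 and the upright line is the median of the list. The medians lie between -0.09 and 0.14, and no point is filled between FUN025/FUN025 and FUN025/+.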

How the data were processed

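RNA was sequenced from the posterior eyecups of 15 mice, and genotypes were taken from the sample labels. The authors deposited whole-number read counts per Ensembl gene for each library, without normalization; the submitters' processing notes name FastQC 0.11.8, Trimmomatic 0.39, HISAT2 2.1.0, SAMtools, featureCounts 2.0.0 and the build GRCm38. The strand setting of the counting is not given in the sources used here, so reads of antisense neighbours (Gm12868 at Slc2a1, Hk1os at Hk1) may be included. Symbols, positions and exon lengths came from GENCODE M21 (GRCm38), and promoter windows from RefSeq (GRCm38.p6).

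The 15% of genes with the lowest variance and genes removed by filterByExpr were left out, which left 18979. All 15 mice entered 1 fit of edgeR 4.0.16 (TMM, robust quasi-likelihood, threshold 0.05 on the Benjamini-Hochberg adjusted p), run in R 4.3.3 after a test on simulated data. CPM are counts relative to the scaled total of the library. For r, log2 CPM were taken with a prior count of 2 added. No 2 libraries of a genotype agreed within sampling noise (chi-square per gene 3.06 to 17.2). P-values measure the spread between these mice. At these depths 3 counts correspond to at most 0.28 CPM, counting error only.

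The 10 genes, the gene lists and the tests were chosen with earlier results of these data known. Named genes are the 10 genes, up to 3 called genes per pathway list and comparison with the largest changes and a mean of at least 1 CPM (Pck1, below it, was named after its values were seen), a fixed set of pathway genes, and for each of the 10 genes the 3 with the highest r. Alternatives were other scalings, filters and tests (DESeq2 1.42.0, limma 3.58.1), fewer genotypes, a replicate block, covariates and leaving out each mouse. The muscle list alone, the photoreceptor list alone and counts drawn down to the smallest library were added after seeing the data.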

Additional observations from a re-analysis of the deposited data

Results flagged for a closer look

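Over the 10 genes in 3 genotypes, 2 of 30 groups held a mouse set apart from the others by Dixon's 95% limit, which chance flags in about 1 in 20 groups. Pkm in WT replicate 2 was at 893.4 CPM, above the other 3 WT mice at 863.7 to 866.1 CPM. Ldhb in FUN025/+ replicate 1 was at 275.3 CPM, below the other FUN025/+ mice at 313.2 to 327.1 CPM.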

How the results depend on the processing

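The lower Hk2 level kept its direction and its call in both comparisons with WT under other scalings, filters and tests, with only the compared genotypes, with Xist as a covariate, with the replicate block, with the photoreceptor list alone, with thinned counts and in all fits that left out a mouse; it lost the call with the muscle list, alone or with the photoreceptor list. Between FUN025/+ and WT, 2 of the 10 genes were called. The count was 1 under upper-quartile scaling, without the low-count filter and with only the 2 genotypes compared, and 0 with the muscle list alone or both lists. Leaving out each mouse gave 1 to 3. Between FUN025/FUN025 and WT, 1 was called, and it was 2 with DESeq2, 4 with the photoreceptor list alone (Hk2, Slc16a1, Slc16a3 and Slc16a8), 0 with both lists and 1 to 2 without a mouse; with the muscle list alone the 1 gene called was Ldhb (0.24), not Hk2. Between the mutant genotypes, 0 were called, and 1 with DESeq2 and 1 with the muscle list alone, Slc16a1 in each. Of the other pathway genes, 4 were called between FUN025/+ and WT, against 7 with DESeq2, 11 with the photoreceptor list alone, 2 with both lists and 1 to 9 without a mouse (1 without WT replicate 4, 2 without FUN025/+ replicate 3, 9 without FUN025/+ replicate 5). Between FUN025/FUN025 and WT, 7 were called, against 11 with DESeq2, 14 with the photoreceptor list alone and 5 to 9 without a mouse.

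Same-numbered mice of different genotypes did not deviate together, with r across genes of -0.38 to 0.13 and above 0.1 in 1 of 13 pairs, so the numbers do not pair the mice. With the replicate number as a block, 3, 1 and 0 of the 10 genes were called in the 3 comparisons, Ldha being added in FUN025/+ (-0.27), and 10, 11 and 0 of the other pathway genes. Slc2a1 between FUN025/+ and WT turned to -0.015 with the block.

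The other directions that turned are given here, and the cause was not tested. The largest of these log2 fold changes before turning were those of Hk2 and Slc16a3. With both lists as covariates, the values between FUN025/+ and WT were 0.0054 for Hk2, -0.083 for Pfkl, 0.14 for Pkm, 0.12 for Ldha and 0.034 for Slc16a3. Between FUN025/FUN025 and WT they were -0.11 for Pfkl, 0.14 for Pkm, 0.21 for Ldha and 0.065 for Slc16a3, and between the mutant genotypes -0.042 for Hk2 and -0.0065 for Pkm. With the muscle list alone, Pkm was 0.043, Ldha 0.067 and Slc16a8 0.089 between FUN025/+ and WT, and Pkm 0.048 and Ldha 0.16 between FUN025/FUN025 and WT. With the photoreceptor list alone, Slc2a1 was -0.00999, Ldhb -0.0044 and Slc16a1 -0.0017 between FUN025/+ and WT, and Hk1 0.0105 and Pfkl -0.021 between FUN025/FUN025 and WT. Leaving out each mouse gave -0.00024 to 0.042 for Slc2a1 and -0.10 to 0.029 for Slc16a8 between FUN025/+ and WT, -0.072 to 0.0022 for Hk1, -0.045 to 0.0115 for Pkm and -0.066 to 0.0028 for Ldha between FUN025/FUN025 and WT, and -0.023 to 0.10 for Hk2 and -0.0038 to 0.055 for Pkm between the mutant genotypes. Over all genes, 2600, 2666 and 99 genes were called, and 263, 698 and 106 with both lists as covariates, 1243, 1749 and 107 with the muscle list alone and 2983, 3039 and 171 with DESeq2. Without WT replicate 4 they were 1433, 1519 and 106. Depth limited Slc16a3 most, at 148 counts in its lowest library.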
